A study of Mus musculus with 10 samples.

Results

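Of 20696 autosomal protein-coding genes, 12291 carried an H3K4me3 peak within 1 kb of a transcription start site (TSS) in both replicates of wild-type microglia. Among these marked genes, 1015 (8.26%) were weakly marked. They were chosen by the measured values themselves: the tallest promoter peak of each had a normalised tag count under 30 in replicate 1 and also in replicate 2. The normalised tag count of a peak, called its value here, is the number of sequenced tags in the peak scaled to a library of 10 M tags, where M stands for mega. Because these values chose the members, they are given below as a description and without a test.

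The cells were microglia, the resident macrophages of the brain, sorted as CD45+ CD11b+ CX3CR1+ cells from brains of wild-type C57/Bl6 mice. The study's methods give a low CD45 gate and young adult males. Used here were 2 H3K4me3 ChIP-seq libraries, 2 input libraries that entered only through the authors' peak files, and 2 PLAC-seq libraries that the authors had combined into a list of 26689 interacting pairs of 5 kb bins. The labels do not say whether the replicates came from separate animals, so their spread may be technical. The Hi-C libraries of wild-type and Sall1 enhancer knockout mice were not analysed here, so no genotype or treatment was compared. Depth was 12.8 M tags in replicate 1 and 13.4 M in replicate 2, with 27845 and 26574 peaks. All 14 autosomal genes of a list of 15 microglia markers were marked, with mean values of 125 to 321 and a median of 204, and 0 of them were weakly marked. Of 18 markers of monocytes, neutrophils and lymphocytes, 0 were marked in both replicates.

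H3K4me3, trimethylation of a lysine of histone H3, is placed around the start sites of genes, and its height broadly follows how active a promoter is. Promoters rich in CpG dinucleotides can recruit the enzymes that write this mark even when transcription is low. At many developmental genes in cells of another lineage, low H3K4me3 lies together with H3K27me3, the mark of Polycomb repression, a state called bivalent. H3K27me3 was not among the data used here, so bivalency was not measured.

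The sequences below give the 150 bases that end 1 base before the TSS nearest the tallest peak, 5′ to 3′ on the strand of the gene, in GRCm38 (mm10). CpG dinucleotides and any TATAAA are in capitals. They were picked from the gene groups described further on, and no sequence carries a test. Promoters of 4 immune genes come first, because most immune members had promoters of low CpG content, Cxcl10 being of the intermediate class. Apoe (chr7:19699009-19699158, minus strand) held 7 CpG sites in these 150 bases, Axl (chr7:25788688-25788837, minus strand) 4, Crybb1 (chr5:112255665-112255814, plus strand) 1 and Cxcl10 (chr5:92348890-92349039, minus strand) 3. A TATAAA match was found in the Crybb1 stretch.
Apoe: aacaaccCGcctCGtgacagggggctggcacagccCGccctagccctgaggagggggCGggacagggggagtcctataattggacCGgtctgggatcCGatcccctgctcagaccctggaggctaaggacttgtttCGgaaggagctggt
Axl: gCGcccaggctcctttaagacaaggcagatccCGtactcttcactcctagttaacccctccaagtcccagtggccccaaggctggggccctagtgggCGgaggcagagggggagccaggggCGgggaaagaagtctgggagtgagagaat
Crybb1: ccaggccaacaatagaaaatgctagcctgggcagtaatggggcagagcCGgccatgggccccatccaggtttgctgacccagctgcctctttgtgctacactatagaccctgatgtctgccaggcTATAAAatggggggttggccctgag
Cxcl10: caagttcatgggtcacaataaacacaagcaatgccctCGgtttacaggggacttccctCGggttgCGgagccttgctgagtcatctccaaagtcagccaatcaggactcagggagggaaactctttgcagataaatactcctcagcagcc

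Promoters of 4 developmental and neuronal genes are shown for contrast, because such members mostly had CpG-rich or intermediate promoters. Gata4 (chr14:63245272-63245421, minus strand) held 16 CpG sites, Olig2 (chr16:91225307-91225456, plus strand) 14, Hoxd13 (chr2:74668160-74668309, plus strand) 21 and Snap25 (chr2:136713328-136713477, plus strand) 9, and TATAAA was in none of these 4 stretches.
Gata4: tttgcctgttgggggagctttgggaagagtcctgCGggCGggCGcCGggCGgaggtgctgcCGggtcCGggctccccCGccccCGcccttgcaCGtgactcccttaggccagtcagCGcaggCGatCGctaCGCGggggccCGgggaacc
Olig2: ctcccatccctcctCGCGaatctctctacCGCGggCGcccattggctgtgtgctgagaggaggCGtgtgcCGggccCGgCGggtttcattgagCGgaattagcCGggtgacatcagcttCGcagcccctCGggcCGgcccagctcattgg
Hoxd13: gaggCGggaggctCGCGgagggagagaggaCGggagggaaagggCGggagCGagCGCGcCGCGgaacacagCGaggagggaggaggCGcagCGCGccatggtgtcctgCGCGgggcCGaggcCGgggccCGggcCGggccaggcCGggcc
Snap25: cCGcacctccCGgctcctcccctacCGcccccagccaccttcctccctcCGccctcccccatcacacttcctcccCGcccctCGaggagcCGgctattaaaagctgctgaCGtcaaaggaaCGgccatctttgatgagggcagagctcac

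The members' values spanned the whole range that the rule allowed. In replicate 1 they ran from 3.90 to 29.6 with a median of 14.8 (quartiles 10.1 and 19.5), and in replicate 2 from 3.73 to 29.8 with a median of 14.2 (quartiles 10.4 and 20.1). Other marked genes had medians of 225 and 234. The median member peak held 19 tags in each library, so counting error was large. By the exact Poisson 95% interval, a peak of that size had a value between 8.91 and 23.1 in replicate 1 and between 8.53 and 22.1 in replicate 2. The median fold of member peaks over input was 22.9 in replicate 1 and 20 in replicate 2. The lowest fold was 4.09 and 4.00, which is also the lowest fold of any deposited peak in each replicate. All deposited peaks stood above input, so this held for members in advance. Input signal at member peaks was low, with medians of 0.60 and 0.70 tags scaled to the ChIP library, against 1.20 and 1.40 at other marked genes. The fold therefore rests on few input tags.

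The replicates placed members at similar heights but ordered them loosely. The values of 896 members (88.3%) lay within 2-fold of each other in the 2 libraries, against 99.5% of other marked genes. The log2 ratio of replicate 2 over replicate 1 had an SD of 0.64 over members, where counting alone would give 0.50, and a median of -0.06. Between the libraries, Pearson's r over members was 0.489 on the log2 scale, and Spearman's rank correlation was 0.504. This is a description over 1015 genes from the same 2 libraries, within a narrow range that the rule set. The tallest peaks of the replicates overlapped by at least 1 bp at 704 members (69.4%) and at 90.3% of other marked genes.

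**Figure D1:**
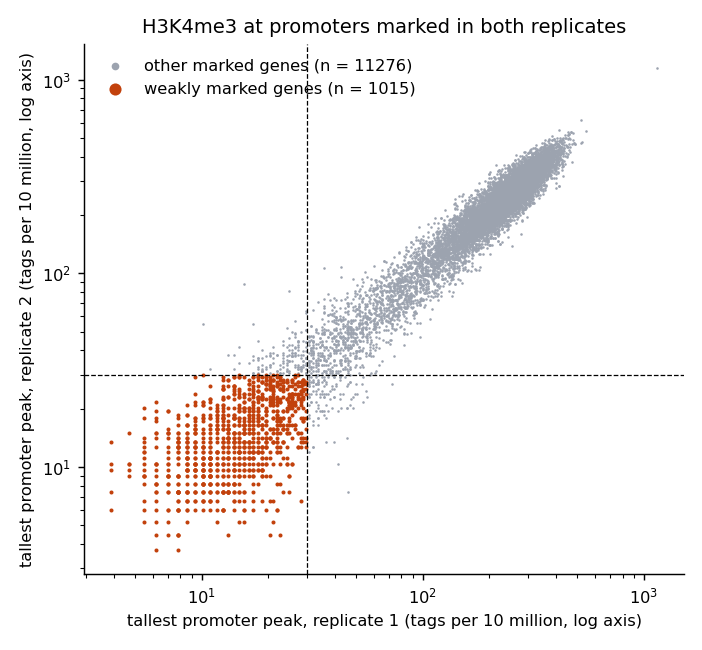
Each point is 1 gene marked in both replicates, placed by the tallest peak at its promoter in the replicate 1 library (x axis) and the replicate 2 library (y axis), both log axes of tags per 10 M; dashed lines mark a value of 30. The 1015 weakly marked genes (orange) fill the corner below 30 in both and spread more widely than the 11276 other genes (grey); their rows and columns of points are whole tags.

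The largest disagreement was at Arhgap44, the gene of a GTPase-activating protein, with 22.6 in replicate 1 and 4.48 in replicate 2. Scn4b, a sodium channel beta subunit gene, had 20.3 and 4.48. Cst6 and Dtx1 likewise were higher in replicate 1 (28.0 and 6.71, 21 and 5.22), whereas Rasgrp4, a Ras activator gene of myeloid and mast cells, was higher in replicate 2 (5.45 and 20.1). These genes have values on both sides of the members' median, so their rank within the members is not settled by 2 libraries. The lowest means were those of Pcdhac2 (3.90 and 5.97), Aldh1a3 (6.23 and 3.73), Tenm2 (5.45 and 5.22), Olfr94 (6.23 and 4.48) and Tram1l1 (3.90 and 7.46), each from 5 to 10 tags.

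The threshold ran through a continuous range of values. Just inside were Clec1a (17.9 and 29.8), Foxa1 (14.8 and 29.8) and Gata4 (21 and 29.8). Just outside were 4930518I15Rik (30.4 and 29.8), Cacna1b (30.4 and 23.9) and the chemokine gene Ccl3 (30.4 and 28.3). A further 281 marked genes were under 30 in 1 replicate only. The counting interval lay wholly under 30 in both replicates for 663 members, and it reached under 30 in both for 296 other marked genes. A further 422 genes had a promoter peak in replicate 1 only (median value 8.57) and 177 in replicate 2 only (median 9.70), and these were not counted as marked.

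Member peaks lay at the promoter but less tightly placed than at other genes. The median peak centre was 113 bp downstream of the nearest TSS in replicate 1 and 100 bp downstream in replicate 2, against 145 and 144 bp for other marked genes. The centre lay over 500 bp from a TSS at 15.8% of members (Wilson 95% interval 13.7 to 18.1) and at 7.18% of other marked genes (6.72 to 7.67) in replicate 1. In replicate 2 the shares were 16.5% and 6.96%. The centre was upstream of the start more often at members, where 70.1% of centres lay downstream in each replicate, against 80.9% and 80.7% of other marked genes. In replicate 1 it fell in an exon of the gene at 520 members (51.2%), in an intron at 298 (29.4%) and outside the gene at 197 (19.4%). Over all marked genes these shares were 49.1%, 37.4% and 13.5%, so the exon share of members was near that of all. Most members had a single promoter peak, 76.2% in replicate 1 and 83.3% in replicate 2, against 61.5% and 63.9%. With few tags the tallest position is itself less certain, and its part in these shares was not tested.

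**Figure D2:**
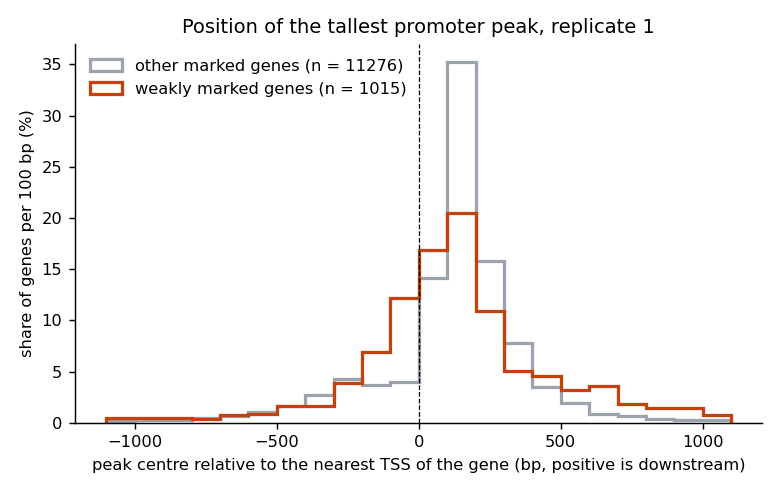
Lines give the share of genes (y, percent per 100 bp) by the distance of the centre of the tallest promoter peak from the nearest TSS of the gene (x, bp, positive downstream) in replicate 1. Other marked genes (grey, n = 11276) pile up just downstream of the start, with a median of 145 bp, while weakly marked genes (orange, n = 1015, median 113 bp) spread more evenly to both sides.

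Few members shared a peak with a neighbouring gene, which the rule itself limits. A gene with a start within 1 kb of a neighbour's peak of 30 or more could not be a member. The tallest peak was shared with another protein-coding gene at 36 members (3.55%), against 19.1% of other marked genes. In replicate 1 it lay closer to the TSS of another annotated gene at 60 members (5.91%), against 13.5% of other marked genes. At 21 of the 60 that gene was protein coding. At 59 members (5.81%) a peak of 30 or more stood 1 to 5 kb from a TSS in both replicates. The tallest were at Prox2 and Slc26a8. Prox2, a homeobox gene, had a value of 21.8 and 20.9 at its own start and 413 and 379 at distances of 4519 and 4579 bp. Slc26a8, an anion transporter gene, had 22.6 and 11.9, and its weak peak in replicate 1 lay closer to the start of its neighbour Mapk14. Slc26a8 also had a peak of 379 and 439 at 1587 and 1609 bp from its own start. Zbtb18 (14 and 7.46), Ctf1 (23.4 and 24.6) and Caskin2 (11.7 and 8.95) also had peaks above 250 in both replicates within 5 kb.

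The CpG content of members lay between those of more strongly marked and of unmarked genes. Each promoter was classed by the most CpG-rich 500 bp stretch between 700 bp before and 200 bp after its TSS. A class of high CpG needed an observed over expected CpG ratio of at least 0.75 and 55% GC, a low class had no stretch at 0.48 or more, and the rest were intermediate. Of the members, 396 (39.0%, Wilson 95% interval 36.1 to 42.1) were high, 407 (40.1%) intermediate and 212 (20.9%, 18.5 to 23.5) low. Over all marked genes 65.5% were high, and over the 11276 other marked genes 67.9% were high and 5.74% low. Of 8405 genes not marked in both replicates, 5.27% were high and 79.0% low. The members' intervals overlapped those of neither group. These intervals cover the counting of genes and no error between animals.

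The share of high CpG promoters did not change steadily with height. By mean value it was 43.2% under 10, 37.9% from 10 to 20 and 38.7% from 20 to 30. It was then 42.3% from 30 to 50 and 45.0% from 50 to 100, beyond the threshold that defined the members. The rise came above 100, with 52.5% from 100 to 200, 74.6% from 200 to 300 and 87.8% at 300 or more. The shares of high CpG on either side of the threshold of 30 had overlapping intervals (33.8 to 43.9 and 38.3 to 46.5).

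**Figure D3:**
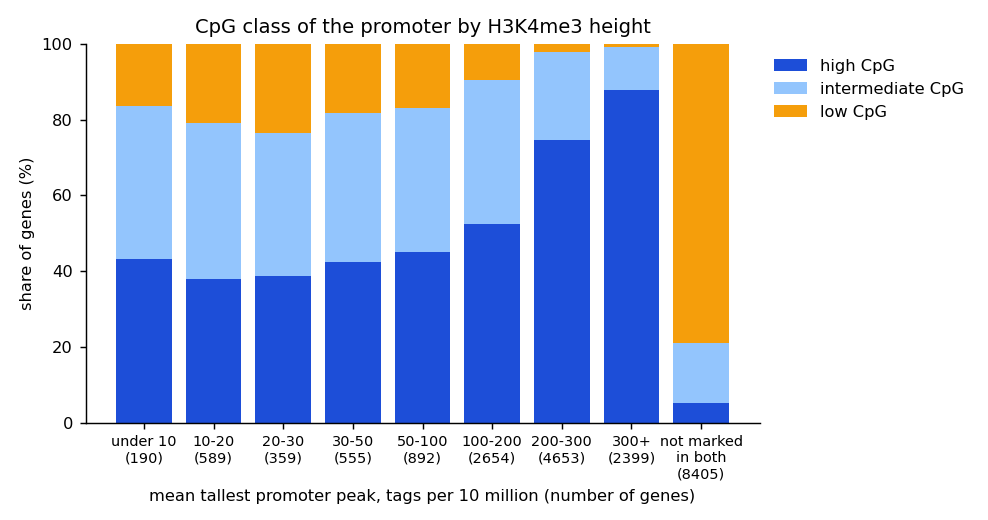
Stacked bars give the share of genes (y, percent) with high, intermediate and low CpG promoters by the mean value of the tallest promoter peak (x, tags per 10 M, number of genes in brackets), with genes not marked in both replicates at the right. The 3 bars under 30 resemble those from 30 to 100, with 37.9% to 45.0% high CpG, and differ from the bar of unmarked genes, at 5.27%.

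At the extremes, Shisal1, Camk2b, Pou4f1, Jph3 and Mak had the highest CpG ratios among members, 1.22 to 1.26 between 250 bp before and 50 bp after the start. Camk2b encodes a calcium-dependent kinase of synapses, Pou4f1 a transcription factor of sensory neurons and Jph3 a junctional membrane protein of neurons. Pou4f1 was among the higher members (27.3 and 27.6), while Jph3 was low (5.45 and 5.97). Gm11032, Gm572, Kynu and Phf11b had no CpG at all in that window, with values of 14.9 to 24.9 in either replicate. Kynu encodes kynureninase, an enzyme of tryptophan breakdown.

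Short sequence motifs were searched on both strands in the same window. TATAAA was in 8.47% of member promoters (6.91 to 10.3), 5.41% of other marked promoters and 20.9% of unmarked ones. In the 40 to 20 bases before the start, where a TATA box usually sits, only the strand of the gene was searched. There TATAAA was in 20 members (1.97%, 1.28 to 3.02) against 0.701% and 4.62%. Crybb1 holds such a match in the stretch printed above. GGGCGG, the core of a GC box, which overlaps CpG by its letters, was in 60.7% of members, 70.6% of other marked and 17.4% of unmarked promoters. CCAAT was in 30.9%, 36.3% and 39.1%. AGGAAGT, a core bound by ETS factors such as PU.1, was in 6.80%, 8.31% and 10.5%, and TGACTCA, a core of AP-1, in 3.25%, 2.79% and 6.48%. A match is only a match of letters.

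Microglia lists differed in how many members they held. Of 22 marked homeostatic microglia genes 1 was weakly marked, Crybb1, a crystallin gene used as a microglia marker, with 16.4 in replicate 1 and 9.70 in replicate 2. The list's median over marked genes was 209, near the 220 of all marked genes. Of 19 marked genes of disease-associated microglia 4 (21.1%) were members. Apoe, which encodes the lipid carrier apolipoprotein E, had 14 and 14.9 in the 2 libraries. Axl, a receptor for apoptotic cells, had 8.57 and 20.9, from 11 and 28 tags, and the counting intervals of the 2 values (4.28 to 15.3 and 13.9 to 30.2) overlapped. The others were Ccl6, a chemokine gene (14.8 and 23.9), and Lgals3, the galectin-3 gene (9.35 and 15.7). All these shares are to be read beside the 8.26% of marked genes that the rule chose. The microglia signature of the study, chosen on RNA, gave 39 of 224 (17.4%), of which the highest were Mmp23 (22.6 and 29.1), Tnfrsf17 (28.8 and 22.4) and Bcan (23.4 and 27.6). The signature's members also include Snap25, Map2, Slc17a7 and Slc1a2, which are counted further on as markers of neurons or astrocytes.

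A list of 7 genes was taken from those that the study's text names as higher after loss of the Sall1 enhancer, and it does not hold all that are named there. Of the 7, 6 were marked in these wild-type cells and 4 were members. They were Apoe, Axl, Batf2, a transcription factor gene of interferon responses (23.4 and 15.7), and Tfec, a macrophage transcription factor gene of the MiT family (14 and 9.70). The list is short and incomplete, and Mrc1, described below as a border macrophage marker, is also named there and was a member. Its genes come from the study's account of other libraries, and knockout H3K4me3 was not measured here. All 4 promoters were of low CpG.

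Interferon and inflammatory genes were split between weak and strong marking. Of 16 marked interferon response genes 4 (25.0%) were members, and the list's median over marked genes was 53.4. Oasl2, an antiviral oligoadenylate synthetase-like gene, had 19.5 and 29.8, Zbp1, a sensor of nucleic acids in the Z form, 12.5 and 28.3, Rsad2, the antiviral gene viperin, 14 and 24.6, and Ifit3 11.7 and 16.4. Each was higher in replicate 2, and all 4 promoters were of low CpG. Of 12 marked inflammatory response genes 4 (33.3%) were members: Ptgs2, the cyclooxygenase-2 gene (24.9 and 17.9), Nos2, the inducible nitric oxide synthase gene (17.9 and 19.4), the chemokine gene Cxcl10 (21 and 13.4) and Cd40, a co-stimulatory receptor gene (12.5 and 12.7). Of 8 marked genes of antigen presentation 0 were members, and their median value was 257. Chemokine and interleukin genes had 5 members among 17 marked, led by Il11 (26.5 and 29.1) and Ccl9 (20.3 and 28.3).

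Markers of other brain cells, where marked at all, were mostly weak. Of 18 neuron markers 5 were marked and all 5 were members. They were Tubb3, neuronal tubulin (11.7 and 20.9), Slc17a7, a vesicular glutamate transporter (8.57 and 14.9), Map2, a dendritic cytoskeletal protein (8.57 and 12.7), Nefm, a neurofilament (8.57 and 10.4), and Snap25, a protein of synaptic vesicle fusion (10.1 and 8.21). Of 13 astrocyte markers 5 were marked and 3 were members: Aldh1l1 (17.1 and 23.9), the connexin gene Gja1 (17.9 and 16.4) and the glutamate transporter gene Slc1a2 (7.01 and 9.70). Of 13 oligodendrocyte lineage markers 5 were marked and 3 were members: Pdgfra, the receptor of oligodendrocyte precursors (24.9 and 20.1), the transcription factor gene Olig2 (15.6 and 14.9) and the myelin junction gene Cldn11 (11.7 and 8.21). Of 13 endothelial and mural markers, Pecam1 (15.6 and 11.2) and Kcnj8 (17.1 and 8.95) were members among 4 marked, and of 11 border macrophage markers Mrc1, the mannose receptor (15.6 and 11.9), was 1 of 2 marked. The rule put the values of these markers under 30 like those of all members, so the values cannot set them apart. Low H3K4me3 in all cells and H3K4me3 in a few cells of another type within the sort cannot be told apart in such bulk libraries.

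Neuronal gene families gave many more members than these markers. Potassium channel genes had 23 members among 46 marked (50%), led by Kcnk10 (25.7 and 28.3), Kcnh3 (22.6 and 25.4) and Kcnip2 (17.9 and 29.1). The protein of Kcnip2 binds potassium channels and calcium. Calcium and sodium channel genes had 9 of 20 (45.0%), led by Cacna1e (19.5 and 29.1), and all 9 promoters were of high CpG. GABA and glutamate receptor genes had 9 of 12 (75%), with Grm6 (18.7 and 23.1) and Grm8 (21.8 and 11.9) the highest and a median value of 13.3. Protocadherin genes, which encode adhesion proteins that give neurons their identity, had 17 of 26 (65.4%). Pcdhgb7 (28.0 and 23.9) and Pcdhga11 (28.8 and 20.1) led them. Variants of this cluster are similar in sequence, so tags may be misplaced between them, which was not tested. Orphan and adhesion G protein-coupled receptor genes are a mixed family and were not among the neuronal lists pooled below. They had 11 of 40 (27.5%), led by Gpr25 (19.5 and 26.9) and Adgre5 (26.5 and 19.4).

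Developmental regulators of other lineages gave a similar picture. Of 91 autosomal developmental transcription factor genes 44 were marked and 18 (40.9%) were members. Among the highest were Foxc1, a forkhead gene of mesoderm (29.6 and 26.9), Gata4, of heart and endoderm (21 and 29.8), Foxa1, of endoderm (14.8 and 29.8), Tbx20, of heart (21 and 22.4), and Msx2, of limb and face (24.9 and 8.95). Hox cluster genes, which pattern the body axis, had 11 of 17 (64.7%), with Hoxb7 (24.2 and 28.3), Hoxc4 (24.2 and 27.6), Hoxd8 (26.5 and 16.4) and Hoxa13 (13.2 and 26.1) the highest. Wnt and Fgf ligand genes had 9 of 17 (52.9%), led by Fgf18 (19.5 and 29.1), and morphogens and their antagonists had 5 of 12 (41.7%). The latter were Frzb (19.5 and 22.4), Gdf6 (22.6 and 10.4), Dkk2 (14.8 and 10.4), the BMP antagonist gene Nog (14.8 and 7.46) and Sfrp2 (9.35 and 10.4).

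The families of basic cell functions that were listed held 0 members, and other such genes were not counted. Of 73 marked cytosolic ribosomal protein genes, 38 proteasome genes, 78 mitochondrial ribosomal protein genes and 43 respiratory complex I genes, 0 were weakly marked, with medians of 240 to 265. The 26 marked regulators of Polycomb and bivalency, which encode the writers and erasers themselves, also gave 0, with a median of 267. Zinc finger genes of the Zfp series gave 7 of 331 (2.11%), led by Zfp507 (27.3 and 26.1).

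**Figure D4:**
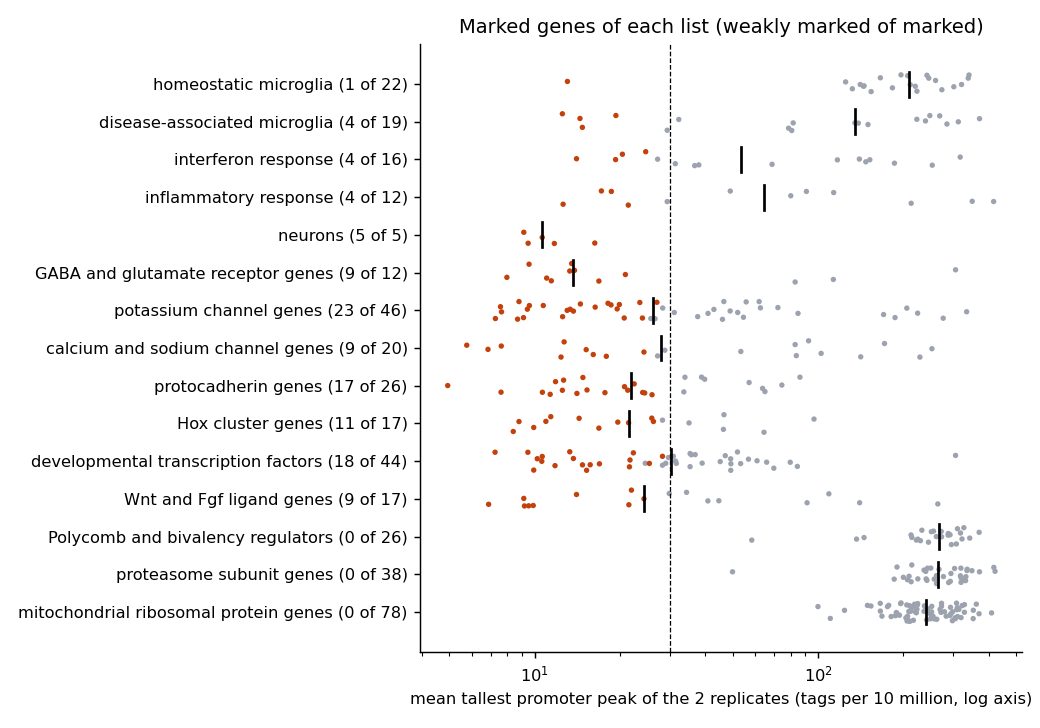
Each point is 1 marked gene of a list, at the mean value of its tallest promoter peak over both replicates (x, tags per 10 M, log axis); orange points are weakly marked, black bars are medians and the dashed line is at 30. Neuronal and developmental lists straddle or lie left of the line, with medians of 10.6 to 30.2, while homeostatic microglia genes and the bottom 3 lists have medians of 209 to 267; a grey point left of the line had 1 replicate at 30 or more.

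Immune members and neuronal or developmental members differed in CpG class. Pooling the immune lists without repeats gave 25 members, of which 17 (68.0%, Wilson 95% interval 48.4 to 82.8) were of low CpG, and 1 was high. Pooling the neuronal lists gave 85 members, with 12 (14.1%, 8.26 to 23.1) of low CpG and 39 high. Pooling the developmental lists gave 43, with 5 (11.6%, 5.07 to 24.5) low and 22 high. Among more strongly marked genes of these lists, 41 of 85 immune, 4 of 60 neuronal and 1 of 47 developmental genes were of low CpG. The intervals of the neuronal and developmental members overlapped. The immune pool includes the microglia and border macrophage lists and the tumour necrosis factor list (6 members). The neuronal pool includes the synaptic and axonal adhesion and guidance list (22 members). The tumour necrosis factor and adhesion lists and all the pools were drawn up after the members were seen, so these shares and intervals describe that choice. The 8 promoters printed above are examples and do not carry these counts.

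PLAC-seq, a proximity ligation assay enriched with an H3K4me3 antibody, gave contacts of these promoters that the rule did not use. A gene was counted when the 5 kb bin of 1 of its TSSs took part in a called interaction. Of the members, 232 (22.9%, Wilson 95% interval 20.4 to 25.5) had at least 1, against 4410 of 11276 other marked genes (39.1%, 38.2 to 40.0) and 473 of 8405 unmarked genes (5.63%, 5.15 to 6.14). Over all marked genes the share was 37.8%. Members averaged 0.693 interactions, other marked genes 1.41 and unmarked genes 0.121. The share rose with height from 13.2% under 10 (9.07 to 18.7) to 21.7% from 10 to 20 and 31.2% from 20 to 30, then was 25.6% from 30 to 50 and reached 43.3% at 300 or more. Interactions were called with H3K4me3 peaks as anchors, so the height of the mark bears on whether a contact could be called, and its part in these shares was not tested. The list combines both libraries, so it has no replicate error.

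Few members shared a bin with a stronger promoter. A bin was shared with a more strongly marked gene at 14 members (1.38%), and 37 had a peak of 30 or more in a bin of theirs. Of other marked genes, 20.6% shared a bin with another gene of their group. The rule keeps out starts within 1 kb of a peak of 30 or more, so it limits both member counts. Among the 954 members alone in their bins 22.2% had an interaction, and among the 927 that also had no peak of 30 or more there 21.4% (18.8 to 24.1). The latter count was chosen after the data were seen. Under the same conditions 30.9% of 97 other marked genes (22.6 to 40.7) and 4.69% of unmarked genes (4.25 to 5.19) had an interaction. By the rule, each of those 97 has a peak of 30 or more within 1 kb of a TSS, here across a bin edge. They do not stand for stronger promoters in general, so the overlap of their interval with that of the members decides nothing.

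Members of low CpG had contacts more often than those of high CpG. The share was 36.3% of 212 low (30.1 to 43.0), 23.6% of 407 intermediate (19.7 to 27.9) and 14.9% of 396 high CpG members (11.7 to 18.7). The median mean values of these classes were close, at 15.2, 14.4 and 14.3. Among other marked genes the spread was smaller, with 45.0% of low (41.2 to 48.8), 38.4% of intermediate and 38.9% of high CpG genes, and their heights differed, with medians of 115, 191 and 251. Among unmarked genes the 3 shares were 5.53%, 5.97% and 6.09%. The intervals of high and low CpG members did not overlap, and neighbouring bins of 1 contact and genes that share a bin are not independent. By the pooled lists, drawn up after the members were seen, 10 of 25 immune, 19 of 85 neuronal and 14 of 43 developmental members had a contact. Over all 1015 members 232 (22.9%) did. The developmental pool held 22 high and 5 low CpG members, so the pools do not simply follow the order of the CpG classes.

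**Figure D5:**
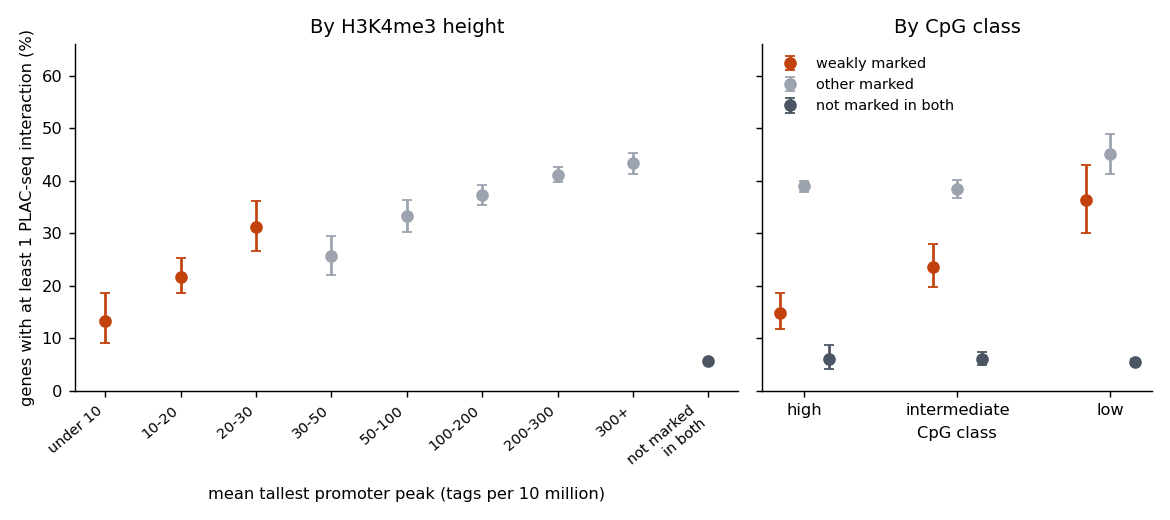
Points give the share of genes with at least 1 PLAC-seq interaction (y, percent) with Wilson 95% intervals, by mean value of the tallest promoter peak (left, tags per 10 M) and by CpG class within each group (right); orange marks weak heights or weakly marked genes, grey other marked genes and dark grey genes not marked in both replicates. The left panel rises from 13.2% to 43.3% with 5.63% for unmarked genes, and on the right the orange points rise from 14.9% at high to 36.3% at low CpG. The bin from 20 to 30 holds 236 members among 359 genes.

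Among called interactions, span and read pairs over expected were close to those of stronger promoters. Per bin, members' interactions spanned a median of 122 kb (quartiles 60.0 and 224) and other marked genes' 125 kb (65.0 and 215). Read pairs over the expected number had medians of 4.01 and 3.86. Only called interactions entered, so the filter of the call limits these ratios from below. Contact strength in general was not compared. The far bin held a peak of 30 or more in both replicates in 83 of 698 cases for members (11.9%, 9.70 to 14.5) and in 16% (15.4 to 16.6) for other marked genes. A start of a more strongly marked gene lay in the far bin of 67 of the 694 distinct interactions, from 53 of the 232 members with contacts. The authors' own annotation put H3K4me3 in the member's bin in 669 of the 694.

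The members with the most interactions were Pdgfra with 14, Kcnip2 with 13 and Kif26b with 12, then Akap7, Kcnk9, Pecam1 and Rpp25 with 11, Pcdhgb7 and Ppm1n with 10 and Ccdc177 with 9. Of the 14 of Pdgfra, 10 reached a run of bins 190 to 225 kb away, of which the best supported had 34 read pairs where 2.75 were expected (ratio 12.4). A further 2 joined it to the bins of Scfd2 and Fip1l1, both 620 kb away and both strongly marked, with 12 and 11 read pairs. Kif26b, a kinesin-like gene of development, with values of 25.7 and 23.9, had its strongest contact 615 kb away, with 32 read pairs against 1.52 (ratio 21). Outside its own bins, Kif26b also had a peak of 32.7 and 42.5, at 1190 and 1307 bp from a TSS. Ccdc177 likewise had a peak of 38.2 and 42.5 outside its bins, at 2611 and 2705 bp. Pecam1, an endothelial and leukocyte adhesion gene, had its contacts within 125 kb, with a highest ratio of 6.98, and the start of another protein-coding gene lay in at least 1 of its bins. Kcnk9, a potassium leak channel gene of low value (8.57 and 9.70), reached the bins of Trappc9, at 510 and 515 kb, and of Ago2 at 635 kb. At Akap7 and Ppm1n a peak of 30 or more lay in the gene's own bins, and Ppm1n also shared a bin with the start of another gene, so their contacts cannot be given to the weak start alone. Neighbouring bins often belong to 1 contact.

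Several immune members had contacts over short distances. Apoe had 3, at 20 to 30 kb, of which 2 reached the bin of Apoc2 (highest ratio 2.69) and 1 that of Clptm1. Axl had 3 at 15 to 20 kb with ratios of 2.24 to 2.38, and Cxcl10 had 4 at 10 to 25 kb, 1 of them to the bin of Cxcl9, its neighbour among interferon-induced chemokines, with 29 read pairs against 11.8. Nos2 had 2, at 65 and 70 kb (highest ratio 4.59). Zbp1 had 8 contacts between 245 and 345 kb away, and at the best supported one 22 read pairs were seen where 1.76 were expected (ratio 12.5). Crybb1, Ptgs2, Cd40, Rsad2 and Ifit3 had 0 called interactions, which does not show that they lack contact.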

How the data were processed

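Per the labels and the study's methods, the authors sequenced H3K4me3 ChIP, input and PLAC-seq libraries of sorted microglia; the submitters' processing notes name Bowtie2, HOMER and mm10. The methods describe ENCODE pipeline peaks as the template for PLAC-seq, which may differ from the deposited ones. For each H3K4me3 library they deposited 1 list of peaks of fixed size (184 bp and 188 bp) in HOMER's format. Used from it were the authors' signal (the normalised tag count, here the value), the whole tag count, the input signal scaled to the ChIP library and the fold over input (a ratio). The deposited p-value, focus ratio (a fraction) and peak score were not used in a result. The deposited interaction list, called with MAPS on both PLAC-seq libraries combined, gave a count of read pairs, an expected signal and a false discovery rate (an adjusted p-value) per pair of bins; its −log10 cluster p-value from the authors was not used.

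The ratio of tag count to value gave depths of 12.8 and 13.4 M tags, and a value of 30 is about 39 and 40 tags. Start sites were those of protein-coding transcripts in GENCODE M21 basic (GRCm38), genes sharing a symbol and chromosome were joined, and sequences were read from the RefSeq GRCm38.p6 genome. Python 3.11.15, numpy 2.4.6, pandas 2.3.3 and scipy 1.17.1 were used. The assignment of peaks and of the high and low CpG classes was tested on simulated data, which held no intermediate promoters. Shares have Wilson and tag counts exact Poisson 95% intervals, for counting error only; PCR copies of a molecule are not separate observations. No test was made, since the values chose the members and there is 1 group.

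The members and the gene lists were chosen with earlier results of these data known, and the imprinted, synaptic adhesion, tumour necrosis factor and cilium lists and the pooled lists after members were seen. Genes were named by rule: up to 6 of each list by mean value, all members of the microglia lists, the 10 with most interactions, 3 on each side of the threshold, 5 lowest, 5 with the largest replicate ratio, 5 at each end of CpG ratio and 5 with the tallest peak within 5 kb; a few genes that this rule names are not reported here. Chromosomes other than the 19 autosomes and the Hi-C libraries were left out of the comparisons. Alternatives changed the threshold, the window, the start sites, the replicates, the input filter, the interaction filter and the sequence definitions.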

Additional observations from a re-analysis of the deposited data

Results flagged for a closer look

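The rule took in autosomes only, and the X chromosome therefore lay outside the main measurement. There, 47 of 393 marked protein-coding genes met the same thresholds (12%, Wilson 95% interval 9.11 to 15.5), against 8.26% of marked autosomal genes. Over single autosomes the share ran from 6.64% on chromosome 8 to 11.5% on chromosome 18, which holds the protocadherin clusters. The part of the chromosome in this share was not tested, and the X-linked genes entered no other count.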

How the results depend on the processing

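No paired analysis was possible because the libraries used belong to 1 condition and no test was made. The threshold set the number of members: under 20 in each replicate it was 640 (5.21% of marked genes, 18.9% of members with an interaction) and under 50 it was 1574 (12.8%). The share of marked genes that were weakly marked was 7.73% with peaks within 500 bp of a TSS, 7.29% for summed peaks, 9.26% by the replicates' mean, 6.46% where the tallest peaks overlapped and 6.73% with peaks of at least 8 fold over input. A peak window of 2 kb lowered the share with a peak of 30 or more within 5 kb to 4.06%. Stricter interaction lists lowered the share of members with an interaction to 15.3% (false discovery rate of at most 0.0001), 13.1% (at least 20 read pairs) and 14.5% (summits and single interactions), where all marked genes had 24.6%, 23% and 24.8%. A CpG ratio of at least 0.6 as the definition gave 57.9% CpG-rich members, and TATAAA in the narrow window, on the gene's strand only, 1.97%.

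Without 1 replicate, the number ran from 1315 to 1577, the share weakly marked from 10.5% to 12.4%, and the share with an interaction from 19.9% to 22.5%. The CpG-rich share then ran from 36.0% to 36.5%, the TATAAA share from 8.37% to 8.69% and the share with a tall peak nearby from 6.24% to 6.85%. Leaving out replicate 2 gave the 1577, more than 1.5 times the main number. Values moved by less than their interval or 1.5 times in 8 settings for the number of members, 2 for the share weakly marked, 11 for interactions, 10 for CpG-rich promoters, 11 for TATAAA and 10 for tall peaks nearby. The restriction to genes alone in bins without a peak of 30 or more was chosen after seeing the data (21.4%). The causes were not tested, except where fewer interactions or a wider definition follow from the setting itself. With about 19 tags in a median peak, the order among members and the absence of weaker peaks are limited by depth.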

Other observations

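Some groups were drawn up after the members had been seen, and their counts describe only that choice. Of 22 marked imprinted genes 5 (22.7%) were weakly marked: Peg3 and Usp29, which share 1 peak (18.7 and 27.6), the growth factor gene Igf2 (17.9 and 19.4), Mest (16.4 and 14.9) and Zdbf2 (10.1 and 20.9). Genes of synaptic and axonal adhesion and guidance gave 22 of 36 (61.1%), led by Epha7 (29.6 and 23.9), Slitrk5 (20.3 and 23.1) and Lrfn2 (25.7 and 14.2), and 0 of these 22 had a called interaction. Genes of the tumour necrosis factor receptor and ligand family gave 6 of 18 (33.3%), with Tnfrsf17 (28.8 and 22.4) and Tnfrsf13c (26.5 and 16.4), receptors best known from B cells, the highest. Cilium and flagellum genes gave 8 of 27 (29.6%), led by Cfap221 (20.3 and 20.9).

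Of the other families, solute carrier genes gave 25 of 211 marked (11.8%), led by Slc35d3 (26.5 and 25.4), cytochrome P450 genes 2 of 15, collagen genes 4 of 8, keratin genes 0 of 2, and Ly6 and Ms4a genes 0 of 5. Of 1454 olfactory and vomeronasal receptor genes, 6 were marked and 4 were members: Olfr433 (18.7 and 9.70), Olfr56 (7.79 and 14.9), Olfr111 (10.9 and 11.2) and Olfr94 (6.23 and 4.48). All 4 promoters were of low CpG. Members of this family are similar in sequence, so their tags may be misplaced, which was not tested.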
